A study of Mus musculus with 6 samples.

Results

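A set of 49 genes, Myc and genes of nucleolar ribosome production, was followed in mouse pro-B cells transformed by the v-Abl oncogene. The set was defined by gene name and not by a filter on its measured values. Earlier results of these data were known when it was chosen. Of the 49 genes, 46 were represented by a probe set paired with 1 gene symbol, out of 19937 genes on the arrays, and the brightest probe set stood for a gene with several. Npm3, Noc2l and Ppan were not analysed here, for want of such a probe set. Total RNA was hybridised to 6 arrays, 3 of cells given 1 µM tamoxifen for 2 days and 3 of untreated cells. All cells were of strain C57/BL6 and carried the genotype Foxo1f/f; ERCre, so both groups held loxP-flanked alleles of Foxo1 and a Cre recombinase that tamoxifen activates through its oestrogen receptor part. The effects of Foxo1 deletion, of Cre activity and of tamoxifen cannot be told apart with these 2 groups. Since no label speaks of separate cultures, the spread behind each p-value may be technical.

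MYC is a transcription factor that binds DNA at E-box sequences as a dimer with MAX and drives growth, and genes for making ribosomes are among its best known targets. Ribosome production starts in the nucleolus, where RNA polymerase I transcribes the precursor of the large ribosomal RNAs and RNA polymerase III supplies 5S RNA from outside it. Small nucleolar ribonucleoproteins (snoRNPs) then guide chemical modification of the precursor, the processome cuts out the small subunit RNA, and further factors assemble the large subunit. In early B cells growth through MYC is linked to interleukin-7 and v-Abl signals, and FOXO factors act on the opposite side, with growth arrest and quiescence.

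The deposited values are linear intensities, 1 per probe set, and precision is limited by having 6 arrays. Array medians lay between 101 and 109. Foxo1 had intensities of 116, 151 and 134 in tamoxifen samples and 806, 624 and 512 in untreated samples (limma adjusted p = 0.0178). The sources used here do not say whether its probe set lies in the deleted part. All 11 measured pro-B cell markers were above the upper quartile of every array. Their summed intensity was 26341 to 27586 in tamoxifen samples and 22758 to 26006 in untreated samples. By log2 fold change 8 of them were positive and 3 negative, with Cd79b (0.52), Ebf1 (-0.51) and Pax5 (0.38) the largest in size and 0 past the test. Of 9 myeloid markers, 0 lay above the upper quartile and 8 lay below the median of every array. These counts were 0 and 4 of 6 T cell markers, and 1 and 4 of 8 stromal markers. The bright stromal gene was Pecam1, with a mean of 614 in tamoxifen and 499 in untreated samples, a large part of the stromal sum. The summed intensity of the myeloid list was 542 to 577 in tamoxifen samples and 540.1 to 632 in untreated samples, that of 6 T cell markers 365 to 431 in tamoxifen and 365 to 459 in untreated samples, and that of 8 stromal markers 1310.4 to 1541 in tamoxifen and 1166 to 1504 in untreated samples. These ranges overlapped between the groups for the other cell types, and for the pro-B list they did not. The pro-B gap was narrow, from 26006 to 26341, in a sum that the brightest genes dominate. An unadjusted limma p under 0.05 was seen for 5 of the 11 pro-B markers in the higher and 1 in the lower direction. Over all genes the shares were 2.96% higher and 2.19% lower. The part of cell makeup in the results was not tested.

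Nearly all of the genes measured slightly lower after tamoxifen, and none passed the test. Of the 46, 45 had a negative log2 fold change, tamoxifen over untreated, with a median of -0.093 and a range of -0.32 (Mrto4) to 0.00038 (Noc3l). Over all 19937 genes 55.5% were negative, with a median of -0.010, and among genes at least as bright as the median probe set 53.7%. Most members varied together within the groups, as given below, so the count does not rest on 46 separate observations. The per-sample median of the members had a within-group SD of 0.12 on the log2 scale. Fold changes are differences of log2(intensity + 16) after quantile normalisation, which understates changes of dim genes. At a limma adjusted p of 0.05 the test called 0 of the 46, where it called 0.0853% of all genes (over probe sets 0.0374% higher and 0.0201% lower, 0.0575% in all), and the adjusted p of the members ran from 0.698 to 1.00. An unadjusted p under 0.05 was seen for 3 members, Myc, Wdr75 and Polr3g, all lower, and for 2.19% of all genes in that direction. In the higher direction it was seen for 0 members and 2.96% of all genes, and in either direction for 5.15% of all genes.

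The groups were rarely apart gene by gene. In deposited intensity, 4 of the 46 (Myc, Gnl3, Nle1 and Polr3g) had all 3 tamoxifen values below all 3 untreated values, against 4.77% of all genes. After quantile normalisation there were 8 (these 4 with Nolc1, Nop10, Nop14 and Wdr75), against 5.68%. No member lay apart in the other direction on either scale. The absolute log2 fold change was larger than the within-group SD of the gene for 17 of 46 members and for 28.7% of all genes.

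The count of lower members rested in part on untreated sample 1. Without it, 32 of 46 were negative with a median log2 fold change of -0.040, where all genes had 48.1% negative and a median of 0.0045. Without tamoxifen sample 1, 46 of 46 were negative with a median of -0.16, and without untreated sample 3, 46 of 46 with a median of -0.15. It was 38 of 46 (median -0.063) without tamoxifen sample 2 and 40 of 46 (-0.074) without tamoxifen sample 3. Leaving out untreated sample 2 gave 44 of 46 (-0.12). In these fits 52.4% to 60.8% of all genes were negative. Of the 28 members given by sample under the naming rule, 17 turned positive or came nearer to 0 by more than 1.5 times without untreated sample 1, and Myc, Wdr75 and Polr3g did not. The intensities are relative within each array, so a change in total RNA per cell would not be seen, and fewer cells with a transcript cannot be told apart from less of it per cell.

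**Figure D1:**
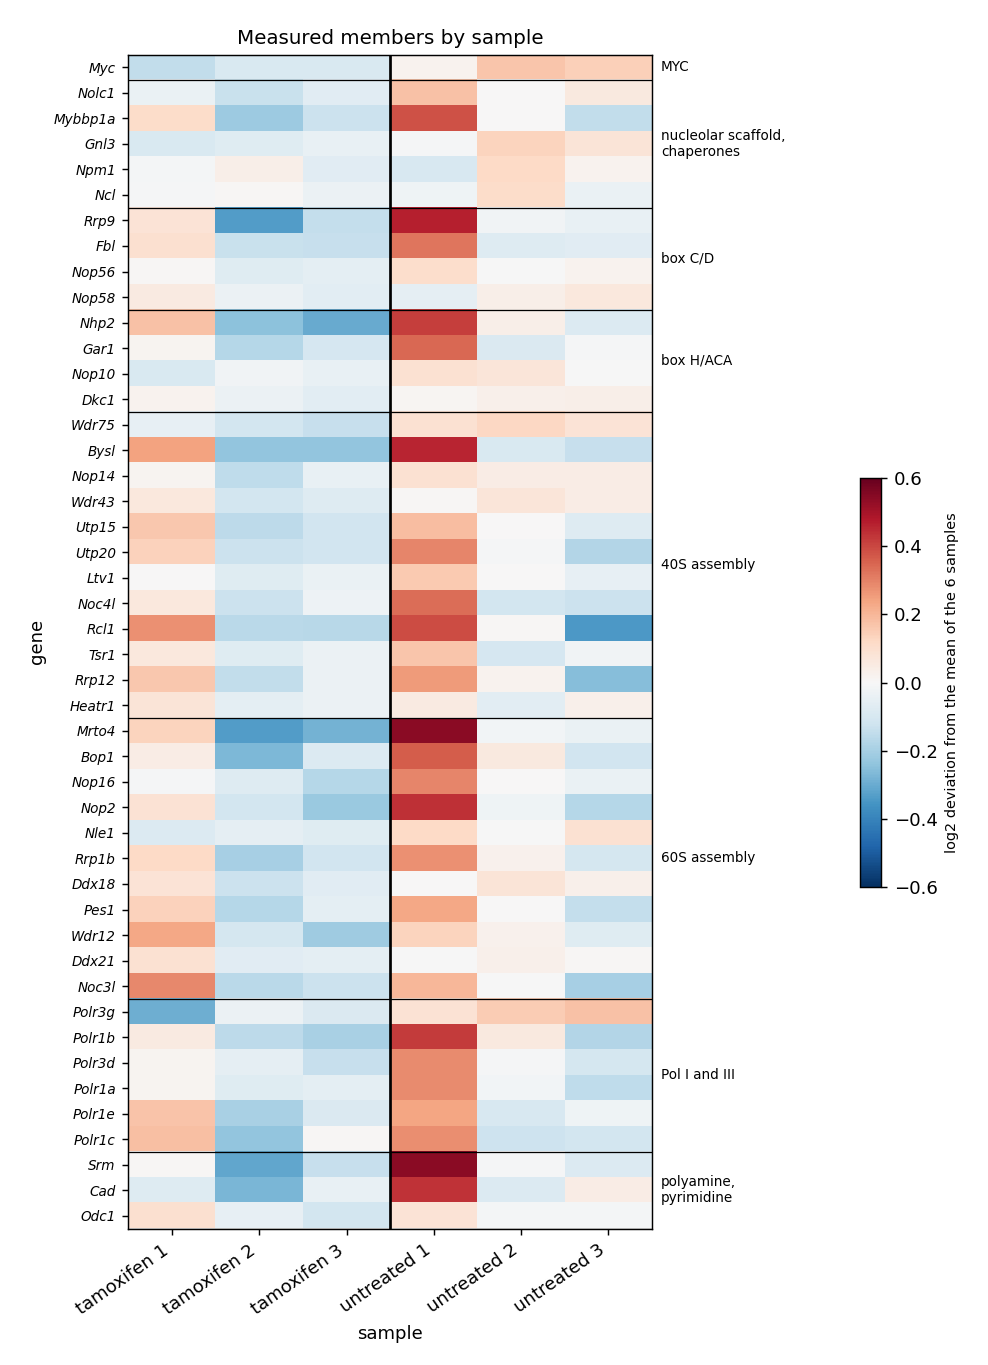
Heat map of the log2 deviation of each of the 46 measured genes (rows, grouped by role) from its mean over the 6 samples (columns, tamoxifen left, untreated right), after quantile normalisation. Red is above and blue below the gene's own mean; untreated sample 1 is red in 41 rows and tamoxifen sample 1 in 35, while tamoxifen samples 2 and 3 are red in 2 and 1.

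Myc, the transcription factor of the set, was lower in all 3 tamoxifen samples. Intensities were 3225, 3136 and 3123 in tamoxifen samples 1, 2 and 3, against 3467, 3877 and 3671 in untreated samples 1, 2 and 3. The highest tamoxifen value was below the lowest untreated value. Means were 3161 ± 55.7 in tamoxifen cells and 3672 ± 205 in untreated cells (SD, n = 3 each). The log2 fold change was -0.22 ± 0.066 (SE), its 95% interval -0.38 to -0.063, and the limma adjusted p = 0.721. With 1 array left out the log2 fold change ran from -0.27 to -0.19, and over all alternatives its limma adjusted p ran from 0.442 to 1.00. Within the untreated group sample 1 had the lowest Myc value, although it had the highest value for most of the other members, whereas tamoxifen sample 1 had the highest tamoxifen value before normalisation and the lowest after it.

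Windows from 250 bases before to 50 bases after the start were read from RefSeq (GRCm38.p6) for 42 of the 49 genes, and searched for the E-box CACGTG, which reads the same on both strands. It was found in 8 of the 42 (19%), against 8.91% of 17492 protein-coding genes and 7.15% of all 32851 windows. The related sequence CACGCG, read on both strands, was in 15 of the 42 (35.7%), against 13.7% of protein-coding genes and 9.27% of all windows. Both CACGTG and CACGCG hold the pair CG, and base composition was not matched for either. The forkhead core TGTTTAC, read on both strands, was in 1 of the 42 (Rrp1b), against 3.45% of protein-coding genes and 3.65% of all windows. These matches describe letters and not binding.

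The 8 windows with CACGTG are shown because CACGTG is the canonical MYC E-box. In 7 of the 8 the E-box lay 3 to 41 bases after the start, and only in Nop2, which encodes a methyltransferase of the large subunit RNA, did it lie before it, with its first base 60 bases upstream. Each line gives 30 bases in the direction of the gene, 5′ to 3′, with the E-box in capitals.
Nop2 (chr6:125131811-125131840, plus strand): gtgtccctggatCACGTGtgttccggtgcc
Mybbp1a (chr11:72441347-72441376, plus strand): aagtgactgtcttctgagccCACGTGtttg
Nle1 (chr11:82908355-82908384, minus strand): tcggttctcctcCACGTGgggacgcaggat
Wdr43 (chr17:71616220-71616249, plus strand): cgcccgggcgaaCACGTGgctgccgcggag
Utp20 (chr10:88826765-88826794, minus strand): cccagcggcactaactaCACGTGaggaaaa
Ltv1 (chr10:13193092-13193121, minus strand): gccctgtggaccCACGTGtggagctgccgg
Pes1 (chr11:3963965-3963994, plus strand): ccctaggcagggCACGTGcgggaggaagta
Tsr1 (chr11:74898092-74898121, plus strand): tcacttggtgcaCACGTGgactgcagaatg
The 250 bases before the start of Nop2 (chr6:125131633-125131882, plus strand), shown because its E-box lies upstream, read as follows.
Nop2 upstream: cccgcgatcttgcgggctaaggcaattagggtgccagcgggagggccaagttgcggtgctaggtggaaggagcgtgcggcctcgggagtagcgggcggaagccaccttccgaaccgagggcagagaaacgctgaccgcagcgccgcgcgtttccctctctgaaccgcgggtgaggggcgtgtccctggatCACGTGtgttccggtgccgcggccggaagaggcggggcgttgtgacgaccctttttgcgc
Members with the E-box had a median log2 fold change of -0.077 (8 measured genes, -0.16 to -0.031), and those whose window lacked it had -0.081 (31 genes, -0.32 to 0.00038). Among genes with a window, the 4 most negative values, those of Mrto4, Polr3g, Cad and Rrp9, belonged to genes whose window lacked it. Sites outside these short windows were not searched, so a gene listed as lacking the E-box may hold one further upstream or downstream. A link between the E-box and the fold change was not tested.

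Scaffold and chaperone proteins organise the nucleolus and hold ribosomal precursors. All 5 measured members were negative, with a median of -0.14, and 0 passed the test. Nolc1, which encodes a phosphoprotein that escorts snoRNPs, had intensities of 1121, 961 and 998 in tamoxifen samples and 1265, 1114 and 1049 in untreated samples. Its log2 fold change was -0.16 ± 0.070 (SE) with a limma adjusted p = 0.991, and only tamoxifen sample 1 reached into the untreated range. Gnl3, the gene for nucleostemin, measured 1899, 1756 and 1783 in tamoxifen samples and 1962, 2130.4 and 1911 in untreated samples. All tamoxifen values of Gnl3 were below the untreated ones, by a small margin, with a log2 fold change of -0.14 ± 0.063 (SE) and a limma adjusted p = 0.999. Mybbp1a, which encodes a MYB-binding nucleolar protein, measured 635, 461 and 488 in tamoxifen samples and 740.3, 571 and 463 in untreated samples, so that sample 1 was the highest of each group and the groups overlapped at a log2 fold change of -0.16 ± 0.15 (SE). Without untreated sample 1 the value of Mybbp1a was -0.0052. The abundant chaperone nucleophosmin (Npm1) had 3815, 3665 and 3364 in tamoxifen samples and 3430.1, 4025 and 3582 in untreated samples. Log2 fold changes were -0.030 ± 0.076 (SE) for Npm1 and -0.027 ± 0.066 (SE) for nucleolin (Ncl), and the 95% intervals were -0.21 to 0.15 for Npm1 and -0.19 to 0.13 for Ncl.

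Box C/D snoRNPs place methyl groups on ribosomal RNA, and box H/ACA snoRNPs convert uridines to pseudouridine. All 4 box C/D and all 4 box H/ACA members were negative, with medians of -0.098 and -0.14, and 0 of the 8 passed the test. Rrp9, which binds the U3 snoRNA of the processome, measured 213, 154 and 178 in tamoxifen samples and 277, 195 and 188 in untreated samples. Its log2 fold change was -0.26 ± 0.17 (SE) with a limma adjusted p = 0.999, the groups overlapped, and with 1 array left out it ran from -0.36 to -0.097. Fbl, the methyltransferase fibrillarin, had 2813, 2184 and 2169.9 in tamoxifen samples and 3109.8, 2367 and 2250.2 in untreated samples, a log2 fold change of -0.12 ± 0.13 (SE), and turned to 0.016 without untreated sample 1. A second, much dimmer probe set of Fbl gave -0.11. Nop56, a scaffold protein of the same particle, had 4094, 3618 and 3668 in tamoxifen samples and 4194, 3955 and 3855 in untreated samples and a log2 fold change of -0.081 ± 0.062 (SE). Its partner Nop58 measured 3272, 2868 and 2779 in tamoxifen samples and 2958, 3179 and 3049.9 in untreated samples and had a log2 fold change of -0.031 ± 0.066 (SE). The groups overlapped for both.

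Among the box H/ACA proteins, Nhp2, which binds the guide RNA, measured 429, 291 and 282 in tamoxifen samples and 486, 373 and 315 in untreated samples. Sample 1 was the highest of each group, and the log2 fold change of -0.25 ± 0.17 (SE) ran from -0.39 to -0.099 with 1 array left out (main limma adjusted p = 0.999). Gar1, another core protein of the particle, had 979.8, 785 and 818 in tamoxifen samples and 1188, 879 and 844 in untreated samples and a log2 fold change of -0.17 ± 0.12 (SE), which became -0.039 without untreated sample 1. Nop10, the smallest protein of the particle, measured 3155, 3082 and 3034 in tamoxifen samples and 3434, 3421 and 3075 in untreated samples, with untreated sample 3 below tamoxifen samples 1 and 2, and its log2 fold change was -0.10 ± 0.060 (SE). Dkc1, the pseudouridine synthase dyskerin, had 1699, 1489 and 1448 in tamoxifen samples and 1612, 1626 and 1516 in untreated samples, a log2 fold change of -0.052 ± 0.057 (SE) and a 95% interval of -0.19 to 0.085.

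Genes of the small subunit processome and 40S assembly were all negative (12 of 12), with a median of -0.072 and 0 past the test. Wdr75, a processome protein needed in human cells for transcription of ribosomal DNA, had the lowest p of all 46 members. It measured 2753, 2410.3 and 2347 in tamoxifen samples and 2904, 2985 and 2729 in untreated samples. Only tamoxifen sample 1 exceeded an untreated value, that of untreated sample 3, and the log2 fold change was -0.20 ± 0.058 (SE) with a 95% interval of -0.34 to -0.059 and a limma adjusted p = 0.698. With 1 array left out it ran from -0.23 to -0.18. Bysl, the gene for bystin, a factor of late 40S assembly, measured 393, 258 and 261 in tamoxifen samples and 439, 298 and 269 in untreated samples, and its log2 fold change of -0.15 ± 0.20 (SE) turned to 0.035 without untreated sample 1. Nop14, a processome protein, had 1436, 1164 and 1246 in tamoxifen samples and 1456, 1398 and 1288 in untreated samples and a log2 fold change of -0.12 ± 0.067 (SE). Wdr43, which joins the processome early, had 3669.9, 3001 and 3077 in tamoxifen samples and 3375, 3573 and 3297 in untreated samples and a log2 fold change of -0.082 ± 0.069 (SE). Both genes overlapped between the groups in deposited intensity. The other 8 (Utp15, Utp20, Ltv1, Noc4l, Rcl1, Tsr1, Rrp12 and Heatr1) lay between -0.074 and -0.013, and in each of them sample 1 had the highest deposited intensity of both groups.

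Large subunit assembly genes were negative in 10 of 11, with a median of -0.13 and 0 past the test. Mrto4, which holds the place of the ribosomal stalk in the precursor, had the largest negative value of all members. It measured 763, 500.0 and 518 in tamoxifen samples and 976, 662 and 588 in untreated samples. Sample 1 was the highest of each group and the groups overlapped, so that the log2 fold change of -0.32 ± 0.20 (SE) had a 95% interval of -0.79 to 0.15 and a limma adjusted p = 0.999. A second, dimmer probe set of Mrto4 gave -0.095, and with 1 array left out the brighter one ran from -0.47 to -0.13. Bop1, a member of the complex it forms with Pes1 and Wdr12, had 224, 174 and 199 in tamoxifen samples and 277, 225 and 192 in untreated samples and a log2 fold change of -0.21 ± 0.14 (SE), which became -0.075 without untreated sample 1. Its partner Pes1 had -0.062 ± 0.12 (SE), and Wdr12 had -0.058 ± 0.13 (SE) for the brightest probe set and -0.16 for a second one of similar brightness. Differences between these genes were not tested. Nop16, a nucleolar 60S assembly factor, measured 537, 469.6 and 437 in tamoxifen samples and 637, 523 and 462 in untreated samples at a log2 fold change of -0.17 ± 0.10 (SE), which became -0.066 without untreated sample 1. Nop2, shown above with its upstream E-box, measured 464, 367 and 341 in tamoxifen samples and 565, 409 and 335 in untreated samples and had a log2 fold change of -0.16 ± 0.17 (SE), which turned to 0.020 without untreated sample 1.

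The remaining large subunit genes included the 2 RNA helicases Ddx18 (-0.074) and Ddx21 (-0.023), Rrp1b (-0.13) and Noc3l (0.00038, with a 95% interval of -0.37 to 0.37), given as log2 fold changes. Nle1, a Notchless homologue that works with the 60S remodelling ATPase, was among the dimmer members, though above every array median, and tight within its groups. Its intensities were 179, 183 and 181 in tamoxifen samples and 206, 191 and 199.8 in untreated samples, without overlap, and it is named for that reason after its values were seen. The log2 fold change of Nle1 was -0.14 ± 0.061 (SE) with a limma adjusted p = 0.99.

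Of the polymerase subunits 6 of 6 were negative, with a median of -0.096 and 0 past the test. Polr3g, which encodes a form of an RNA polymerase III subunit known from pluripotent and tumour cells, measured 483, 528 and 509.8 in tamoxifen samples and 600.2, 639.8 and 588 in untreated samples. The groups did not overlap, and tamoxifen sample 1 was the lowest of all 6. Its log2 fold change was -0.28 ± 0.085 (SE), with a 95% interval of -0.48 to -0.073, a range of -0.33 to -0.20 with 1 array left out and a limma adjusted p = 0.733. Polr1b, the second largest subunit of RNA polymerase I, had 303, 246 and 241 in tamoxifen samples and 382, 298 and 237 in untreated samples and a log2 fold change of -0.20 ± 0.16 (SE), which became -0.041 without untreated sample 1. The largest subunit, Polr1a, had 728, 624 and 630.1 in tamoxifen samples and 837, 682 and 564 in untreated samples and -0.077 ± 0.12 (SE), and turned to 0.045 without untreated sample 1. For both of these genes untreated sample 1 was the highest of all 6 and untreated sample 3 the lowest. Polr3d, of RNA polymerase III, measured 262, 238 and 225 in tamoxifen samples and 308, 253 and 225 in untreated samples and had a log2 fold change of -0.12 ± 0.11 (SE), which became -0.0012 without untreated sample 1. Polr1c and Polr1e gave log2 fold changes of -0.030 and -0.075.

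The 3 enzymes of polyamine and pyrimidine synthesis are classical MYC targets outside the ribosome pathway. Srm, spermidine synthase, measured 1181, 859 and 966 in tamoxifen samples and 1638, 1125 and 974 in untreated samples. Untreated sample 1 stood above the rest, and without it the log2 fold change of -0.30 ± 0.18 (SE) became -0.10 (main limma adjusted p = 0.999). Cad, which carries out the first steps of pyrimidine synthesis, had 421, 336 and 396 in tamoxifen samples and 580.5, 405 and 404 in untreated samples, a log2 fold change of -0.26 ± 0.14 (SE) and -0.11 without untreated sample 1. Odc1, the rate-limiting ornithine decarboxylase, had 3985, 3373 and 3195 in tamoxifen samples and 3745, 3597 and 3384 in untreated samples. Its log2 fold change was -0.039 ± 0.075 (SE) with a 95% interval of -0.22 to 0.14, and a second probe set gave -0.021.

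**Figure D2:**
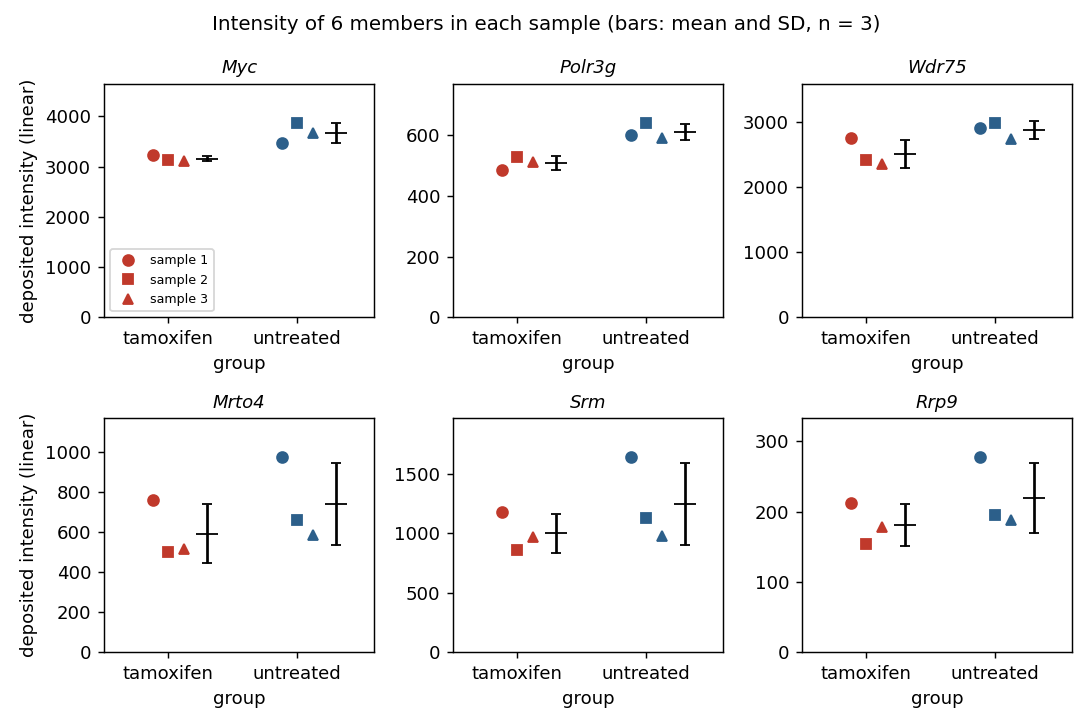
Deposited linear intensity of 6 genes in each sample (red, tamoxifen; blue, untreated; circle, square and triangle for samples 1, 2 and 3), with black bars for the mean and SD of 3 samples. Myc and Polr3g have groups that do not overlap, Wdr75 overlaps by 1 sample, and in Mrto4, Srm and Rrp9 the circle of sample 1 is the highest point of each group and the groups overlap.

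**Figure D3:**
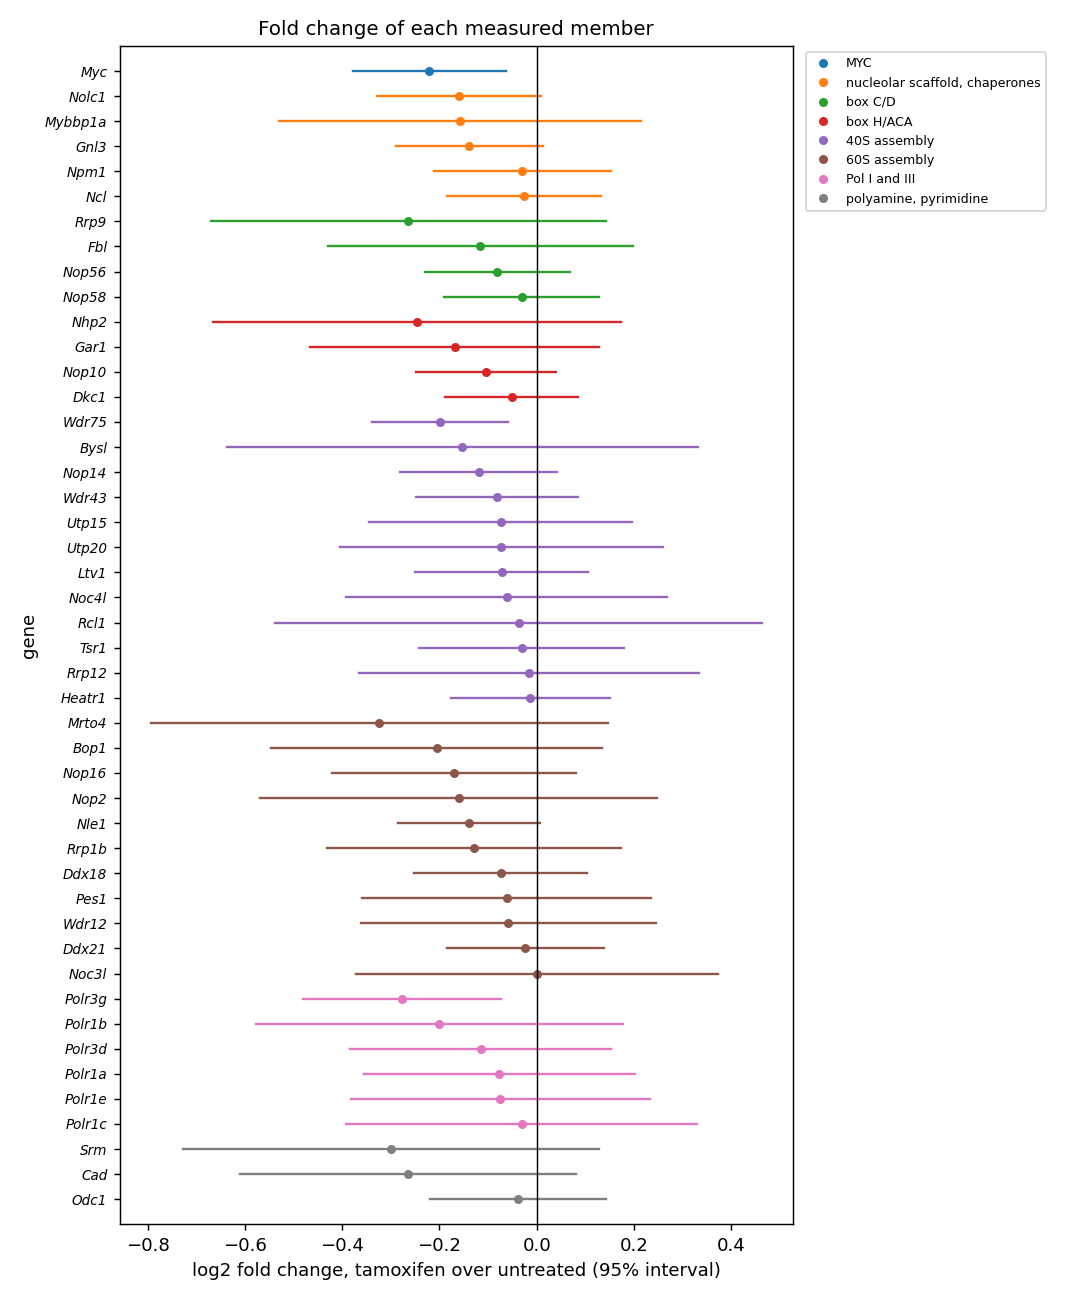
Log2 fold change of each measured gene, tamoxifen over untreated (x axis), with its 95% interval from limma, coloured by role. Of the 46 points 45 lie left of 0, and the intervals of Myc, Wdr75 and Polr3g do not reach 0, before adjustment for the number of probe sets tested.

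Samples of the same group also differed in these genes. The median log2 deviation of the 46 genes from their means over the 6 samples was 0.063, -0.13 and -0.085 in tamoxifen samples 1, 2 and 3, and 0.22, 0.0025 and -0.042 in untreated samples 1, 2 and 3. Sample 1 was thus the high one of both groups, and tamoxifen sample 1 lay above untreated samples 2 and 3. For all genes these medians lay between -0.028 and 0.033. Tamoxifen sample 1 was the highest tamoxifen sample for 38 of 46 members (37.2% of all genes), and untreated sample 1 the highest untreated sample for 35 of 46 (46.2%). These ranks are after quantile normalisation. Both held for 32 members, against 22% of all genes. The median within-group SD on the log2 scale was 0.16 for the members and 0.099 for all genes.

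Most members varied together within the groups. Over the 6 samples, taken as deviations from their group means, the median correlation of a member with the median profile of the others was 0.91, and 29 of 46 were above 0.8. Of all other genes 15.3% were above 0.8 with the profile of the set, at a median of 0.14. These are descriptions over 6 points that share arrays and leave only 4 free deviations. Under the other scalings 28 (cyclic loess), 33 (deposited values) and 39 (common median) of 46 were above 0.8, a comparison added after the data were seen. Mybbp1a (0.99), Mrto4 (0.98), Fbl (0.98) and Utp20 (0.98), named after their values were seen, had the highest correlations after quantile normalisation. The sign for Myc depended on the scaling, at -0.94 after quantile normalisation, -0.99 after cyclic loess, -0.27 in deposited values and 0.38 with a common median. Polr3g gave -0.76, -0.79, -0.33 and 0.30 in the same order, and Gnl3 -0.77, -0.82, 0.45 and 0.73. After quantile normalisation Npm1 (-0.65), Nop58 (-0.30) and Ncl (-0.22) were also below 0, and with a common median 0 members were. What sets sample 1 apart was not tested.

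Other genes of the same pathway were read from 7 lists, and limma called 0 in each of them over all probe sets. Of all genes it called 0.0853%, and 55.5% of all genes were negative, with a median of -0.010. Further small subunit genes had 27 of 32 measured members negative and a median of -0.051, and further large subunit genes 33 of 48 measured members negative and a median of -0.062. Their largest log2 fold changes (± SE) were Imp3 (-0.20 ± 0.14), Snu13 (-0.19 ± 0.12) and Nop9 (-0.17 ± 0.18) for the small subunit and Ddx56 (-0.30 ± 0.13), Nip7 (-0.22 ± 0.18) and Rpf2 (-0.18 ± 0.057) for the large one. Imp3 is a processome protein, Snu13 a core protein of box C/D snoRNPs, and Ddx56 an RNA helicase. Genes of the exosome, which trims and degrades ribosomal RNA precursors, had 10 of 14 measured members negative and a median of -0.062, led by Exosc7 (-0.22 ± 0.075). Genes of nucleotide and polyamine synthesis had 18 of 24 measured members negative and a median of -0.093, led by Shmt1 (-0.34 ± 0.13), a serine hydroxymethyltransferase of one-carbon metabolism, Umps (-0.27 ± 0.16) and Prps1 (-0.26 ± 0.11). An unadjusted p under 0.05 in the lower direction was seen for 0, 2, 1 and 3 members of these 4 lists, and in the higher direction for 1, a large subunit gene. The shares of all genes were 2.19% lower and 2.96% higher.

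The other 3 lists were those of the other polymerase genes, of the ribosome itself and of the MYC network. Their medians lay between -0.015 and 0.020, where all genes had a median of -0.010 and 55.5% negative. Further genes of RNA polymerases I and III had 13 of 26 negative and a median of -0.00033, with Ubtf (0.16 ± 0.19), the polymerase I factor UBF, Polr3b (0.15 ± 0.089) and Brf1 (0.13 ± 0.073) at the largest values. Cytosolic ribosomal proteins had 20 of 54 negative and a median of 0.020, with Rpl34 at 0.15 and Rps25 at -0.14. Many ribosomal protein genes have near-identical pseudogenes, 23 of the 77 listed had no probe set of 1 symbol, and the values of those measured are uncertain. Partners and antagonists of MYC had 8 of 13 negative and a median of -0.015. Their largest values were Mycn (0.23 ± 0.11), a relative of MYC, Mxd4 (0.21 ± 0.093), a repressor that competes for MAX, and Fbxw7 (0.15 ± 0.083), which targets MYC for breakdown. In Mxd4 the groups did not overlap, with a mean of 216 ± 11.9 in tamoxifen cells and 184 ± 17.7 in untreated cells (SD, n = 3 each) and a limma adjusted p = 0.994. None of these 3 lists had a member at an unadjusted p under 0.05, where 5.15% of all genes had one. Differences between lists were not tested.

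The split between samples was also seen in other lists. In tamoxifen samples 1, 2 and 3 the median log2 deviation was 0.13, -0.11 and -0.086 for further small subunit genes, and in untreated samples 1, 2 and 3 it was 0.16, -0.0092 and -0.047. Ribosomal proteins gave 0.047, -0.017 and 0.011 in tamoxifen samples and 0.039, -0.027 and -0.040 in untreated samples. Sample 1 was the highest of both groups in both lists, with a smaller spread for ribosomal proteins. The MYC network list differed, with tamoxifen sample 1 the lowest of its group (0.0055, against 0.017 and 0.057 in tamoxifen samples 2 and 3). The median correlation of a list's genes with the profile of the 46 was 0.90 for nucleotide and polyamine synthesis, 0.85 for the exosome, 0.85 and 0.82 for further small and large subunit genes, 0.78 for the polymerases, 0.54 for ribosomal proteins and 0.33 for the MYC network. It was 0.70 for the pro-B cell markers, 0.39 for stromal, 0.25 for myeloid and -0.058 for T cell markers.

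**Figure D4:**
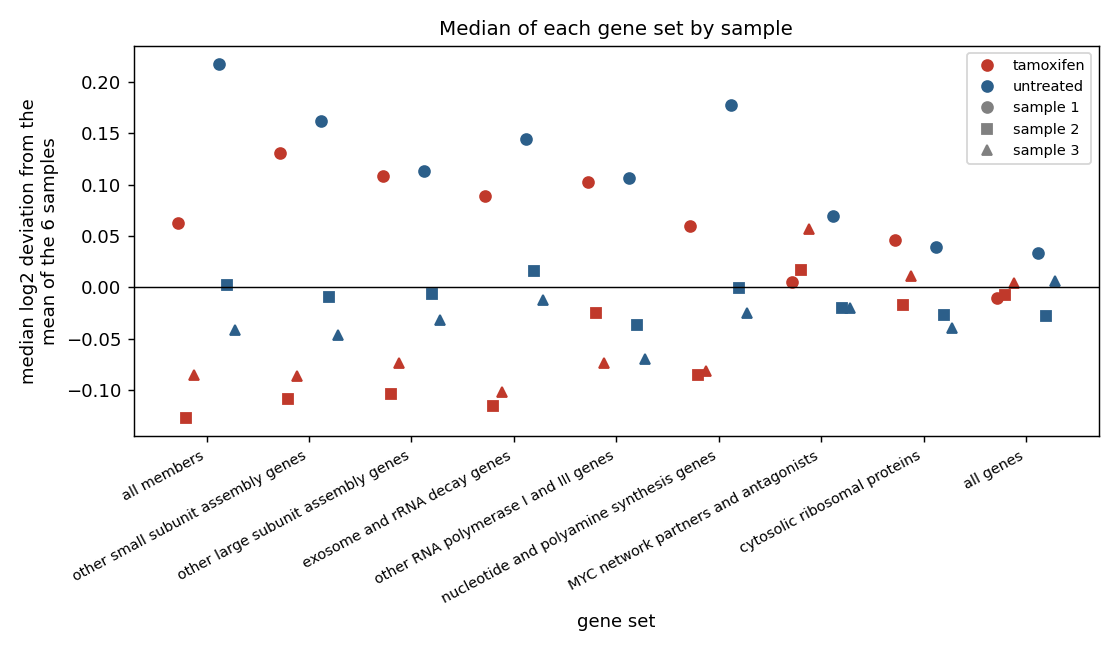
Median log2 deviation of each gene set from its mean over the 6 samples (y axis), by sample, for the 46 measured genes, 7 further pathway lists and all genes (x axis; red, tamoxifen; blue, untreated; circle, square and triangle for samples 1, 2 and 3). In the 46 genes the circles lie at 0.063 (tamoxifen) and 0.22 (untreated), above the squares and triangles of both groups, as they do in the further small and large subunit, exosome, other polymerase and nucleotide sets; for all genes the tamoxifen circle is at -0.010, the lowest of its group.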

How the data were processed

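Total RNA of 3 tamoxifen and 3 untreated samples was hybridised to microarrays as biotinylated cRNA. The deposited values are linear intensities, 1 per probe set and array, already summarised by the authors, and the sources used here do not say how. Groups and replicate numbers came from the sample titles.

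Values were converted to log2(intensity + 16) and quantile normalised, then fitted with limma 3.58.1 (lmFit, eBayes, two-sided) under R 4.3.3. The p-values of all 34760 probe sets were adjusted by Benjamini-Hochberg, with calls at 0.05. A platform table paired 21640 probe sets with 1 symbol, 1321 with several and did not list 11799. The brightest probe set was used for 954 genes that had several. Whether the probe sets of such a gene all read the same locus was not checked. 0 symbols changed when updated through Entrez IDs. Coordinates belong to RefSeq promoter windows, not to probes. The build behind the array is not stated in the sources used here.

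The genes and lists were chosen with earlier results of these data known. Values in each sample are given for Myc and the up to 4 members of each role with the largest absolute log2 fold change, and up to 3 genes are named from each list. Promoters were to be shown for up to 4 members with CACGTG, and the other 4 sites and the CACGCG and TGTTTAC searches were added after the values were seen. Nle1, Ncl, Pes1 and Wdr12 are outside this rule. The fit was tested on simulated data with independent noise for each gene and changes larger than those of the members. It therefore does not cover small shifts shared by many genes. Alternatives are given at the end.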

Additional observations from a re-analysis of the deposited data

How the results depend on the processing

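Under all 17 alternatives limma called 0 of the 46 members, with 2 to 7 at an unadjusted p under 0.05, against 3 in the main analysis. Of all genes 5.15% had such a p in the main analysis. The alternatives that kept all arrays left 42 to 46 of 46 members negative, with medians of -0.11 to -0.071. With 1 array left out, 32 to 46 were negative, with medians of -0.16 to -0.040, and 27 of 46 were negative in all 6 such fits. Of 28 members chosen by rule, 6 changed sign with 1 array left out, with ranges of -0.19 to 0.016 for Fbl, -0.29 to 0.020 for Nop2, -0.31 to 0.035 for Bysl and -0.17 to 0.045 for Polr1a (positive without untreated sample 1), -0.085 to 0.021 for Npm1 (positive without untreated sample 2) and -0.097 to 0.0059 for Odc1 (positive without tamoxifen sample 3). The cause was not tested. Over the whole array 20 probe sets were called, against 3 with a common median, 12 with no further normalization and 11 with a pseudocount of 1. Calls numbered 46 with dim probe sets left out, 65 with only probe sets of 1 symbol and 73 with the probe sets of a gene averaged. There were 12 with an intensity trend and robust eBayes, 39 with array weights and 0 to 6 with 1 array left out. With 1 array left out, 1360 to 2218 of 34760 probe sets had an unadjusted p under 0.05. In the main analysis 1775 of 34760 did. A replicate block left 0 calls by limma, where 2525 of 34760 probe sets passed 0.05 before adjustment, and 7 of 46 members were at an unadjusted p under 0.05. Deviations of same-numbered samples over all probe sets correlated weakly (0.256, 0.0547 and 0.302), where untreated sample 2 correlated better with tamoxifen sample 1 (0.103). Over the 46 members they were 0.694, 0.562 and 0.464, where untreated sample 2 correlated best with tamoxifen sample 2 (against -0.419 with tamoxifen sample 1), and untreated sample 3 best with tamoxifen sample 2 (0.601). No label says what a shared number means. Between same-numbered samples 24 of 46 members were lower after tamoxifen in all 3 differences, against 16.3% of all genes. The 3 arrays of each group limit what small differences can be told from 0.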
